A study of Mus musculus with 56 samples.

Results

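The comparison covers the adrenal glands of male mice at 4 weeks of age, the youngest age in the study, with Znrf3 deleted in steroid-producing cells (cKO) or intact (control). The members were chosen by their labels and came to 8 of the 56 samples of the series: 4 cKO and 4 control glands, each from its own mouse. The mice were C57BL/6J. The cKO mice were labelled SF1-Cre+; Znrf3 Fx/Fx and the controls SF1-Cre negative, littermates by the description of the study; the labels do not say which Znrf3 alleles the controls carried. Cre is driven by SF1 (Nr5a1) sequences, which are active in cells of the adrenal cortex and in other steroidogenic cells, so cells of the medulla, capsule, vessels and blood are not its direct target. The study followed male glands at 4, 6 and 9 weeks to compare an enlarged with a regressing cortex, and the male glands at 6 and 9 weeks are used below only to place the values at 4 weeks.

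Znrf3 and its relative Rnf43 are membrane ubiquitin ligases that remove Frizzled Wnt receptors from the cell surface. R-spondins, secreted mostly by the capsule around the gland, hold these ligases off through Lgr receptors, and in the outer cortex the resulting Wnt/beta-catenin signal maintains the zona glomerulosa, the layer that makes aldosterone. Below it lies the zona fasciculata, which makes glucocorticoids under ACTH, and in young mice a transient X-zone borders the medulla, whose chromaffin cells make adrenaline and noradrenaline.

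The total counts per library, in units of 1e+06, were 15.8 to 24.8 in the controls and 13.8 to 35.5 in the cKO glands, and mitochondrial transcripts took 3.82 to 4.73% and 3.03 to 3.65% of them. All levels below are CPM, counts scaled to a common library total of 1e+06 after edgeR's TMM factors. The steroid enzymes Cyp21a1 and Hsd3b1 and the cholesterol carrier Star were among the 12 highest genes per kilobase in the controls, as the labelled tissue should give, and the summed kidney markers were at 1.07 CPM or less. The first principal component, with 49.5% of the variance, separated the genotypes. The second, with 16% of the variance, set control replicate 2 and cKO replicates 1 and 3 apart from the other 5 libraries, and cKO replicate 2 carried liver transcripts (Alb at 72.1 CPM, against 1.03 CPM or less in the other 7). Library numbers ran from 5 to 8 in the cKO glands and were 3, 28, 29 and 30 in the controls, so that the number range and the genotype cannot be told apart except through control replicate 1.

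Of 17086 genes tested with edgeR's quasi-likelihood test, 1075 (6.29%) were higher and 2200 (12.9%) lower in the cKO glands at an adjusted p below 0.05, and 18 of the higher and 599 of the lower ones differed at least 4-fold. The groups of 4 did not overlap for 3256 genes (19.1%), and the median log2 fold change over all genes was 0.01. The shares of 6.29% higher and 12.9% lower are the background for each list count below. The count of higher genes moved more between settings. Leaving out control replicate 1 gave 2460 higher genes, and leaving out cKO replicate 1 gave 1623. The count was 654 with control replicate 2 and cKO replicates 1 and 3 left out together, and 230 with a covariate for library numbers above 24 (the number covariate below). The lower genes numbered 2285, 1908, 1743 and 1471 in the same fits. The number covariate is a single term shared by all male libraries. It therefore also rests on the glands at 9 weeks, where both genotypes hold numbers on each side of 24, and it assumes the same shift at every age. With library numbers up to 24 only, which leaves control replicate 1 as the single control, 43 genes were higher and 635 lower; that fit assumes that the lone control varies like the other groups.

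Znrf3 itself (GRCm38 chr11:5276324-5444847, minus strand) was at 42.7, 28.7, 30.3 and 27.4 CPM in the controls and at 62.1, 48.2, 47.5 and 50.6 CPM in the cKO libraries. Every cKO library was above every control, and the log2 fold change was 0.69 ± 0.13 (SE, edgeR adjusted p = 5e-04). The deposited value pools all exons of Znrf3, and the labels do not name the deleted part, so it does not check the deletion. Rnf43, which does the same work, went the other way, at 11.7, 6.3, 6.81 and 10.7 CPM in the controls and 3.36, 4.24, 3.87 and 2.85 CPM in the cKO libraries, with no overlap (-1.31 ± 0.29, edgeR adjusted p = 0.00198).

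Rspo3, Rspo1 and Lgr5 were lower, while most genes of receptor control did not pass the test. Rspo3, the R-spondin of the capsule, was at 37.8, 42.9, 51.6 and 53.4 CPM in the controls and at 8.84, 5.31, 7.51 and 5.77 CPM in the cKO libraries (-2.74 ± 0.20, edgeR adjusted p = 1.14e-08). Lgr5, an R-spondin receptor, was at 31.7, 22.3, 37 and 32.5 CPM against 4.74, 3.37, 5.34 and 3.36 CPM (-2.87 ± 0.26, edgeR adjusted p = 5.14e-08). Both sets of 4 lay far apart. Rspo1 fell as well (log2 fold change -1.83), and so did the Frizzled receptor Fzd7 (-0.64). Lgr4, another R-spondin receptor, was at 102 to 145 CPM in the controls and 104 to 131 CPM in the cKO libraries (-0.04, edgeR adjusted p = 0.857). Among the 19 tested genes of receptor control, 1 was higher and 6 were lower, with a median log2 fold change of -0.12; the list has 21 genes and 2 were below the filter on low counts. The sixth, Fzd2 (-0.57), lost its call without any one library other than control replicate 1 or cKO replicate 4, and with the number covariate.

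Among 21 tested Wnt ligands and secreted inhibitors (8 of the 29 listed were below the filter), 7 were lower and 1 higher, with a median of -0.77. The ligands Wnt2b (-2.26) and Wnt6 (-2.15) fell, Wnt10a did at low levels (1.12 to 1.77 CPM in the controls), and so did the inhibitors Sfrp1 (-1.14), Dkk2 (-1.28), Dkk3 (-0.94) and Wif1 (-2.56, from at most 1.06 CPM). Wnt4, the main Wnt of the zona glomerulosa, was at 324, 237, 306 and 275 CPM in the controls and at 267, 185, 202 and 113 CPM in the cKO libraries. These ranges overlapped and the difference missed the threshold (-0.57 ± 0.22, edgeR adjusted p = 0.0784). It passed without cKO replicate 1 (-0.73, edgeR adjusted p = 0.0293) and without control replicate 2 and cKO replicates 1 and 3 together (-1.02, edgeR adjusted p = 0.0157). The 1 ligand called higher was Wnt10b, and it rested on 2 libraries: the controls held 0.374 CPM or less, and the cKO libraries 0.0861, 12.6, 1.58 and 10.8 CPM. Without cKO replicate 2 its edgeR adjusted p was 0.064, and its call also ended with the number covariate.

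Genes that Wnt/beta-catenin signalling switches on did not move together. Axin2, the feedback gene most often used as its readout, was at 78.2, 62.8, 87.7 and 89.1 CPM in the controls and at 88.2, 129, 106 and 132 CPM in the cKO libraries. One cKO library lay among the controls, and the rise was small (0.52 ± 0.16, edgeR adjusted p = 0.0278). It did not pass without control replicate 2, cKO replicate 2 or cKO replicate 4 (adjusted p of 0.0567 to 0.0607), nor with the number covariate. Tnfrsf19, a receptor gene of the same class, was at 106 to 126 CPM in the controls and 139 to 162 CPM in the cKO libraries (0.44 ± 0.13, edgeR adjusted p = 0.0196); this call too ended with the number covariate, and without control replicate 2 and cKO replicates 1 and 3 together. Tcf7, a transcription factor of the pathway, did not overlap between the groups (83.5 to 110 against 113 to 126 CPM) yet missed the threshold (0.26, edgeR adjusted p = 0.0702). It passed with DESeq2 (adjusted p = 0.0348) and when control replicate 1, control replicate 4, cKO replicate 2 or cKO replicate 4 was omitted.

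Of the 17 genes on the target list, 2 were higher and 10 lower, with a median of -0.94. Lef1, a transcription factor of the pathway and its target, was at 9.92, 10.2, 13.6 and 13.7 CPM in the controls and at 4.22, 4.49, 5.28 and 3.28 CPM in the cKO libraries (-1.45 ± 0.22, edgeR adjusted p = 2.91e-05). Nkd1, an inhibitor made in response to the signal, was at 113, 75.1, 118 and 111 CPM against 45.1, 50.2, 60.3 and 37.6 CPM (-1.11 ± 0.17, edgeR adjusted p = 4.87e-05). The inhibitor Nkd2 fell too (-1.49), as did Apcdd1, from 36.8 to 56.3 CPM in the controls to 13.1 to 27.6 CPM in the cKO libraries. Ccnd1, the cyclin D1 gene, fell from 202 to 236 CPM to 112 to 198 CPM. Notum, which inactivates Wnt proteins, was called lower with slight overlap, at 10 to 23.3 CPM against 4.82 to 10.4 CPM. Lgr5, Rnf43 and Dkk3 stand on this list as well as on those above, so the lists are not independent. The plot of Wnt pathway genes by library shows both directions side by side.

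**Figure D1:**
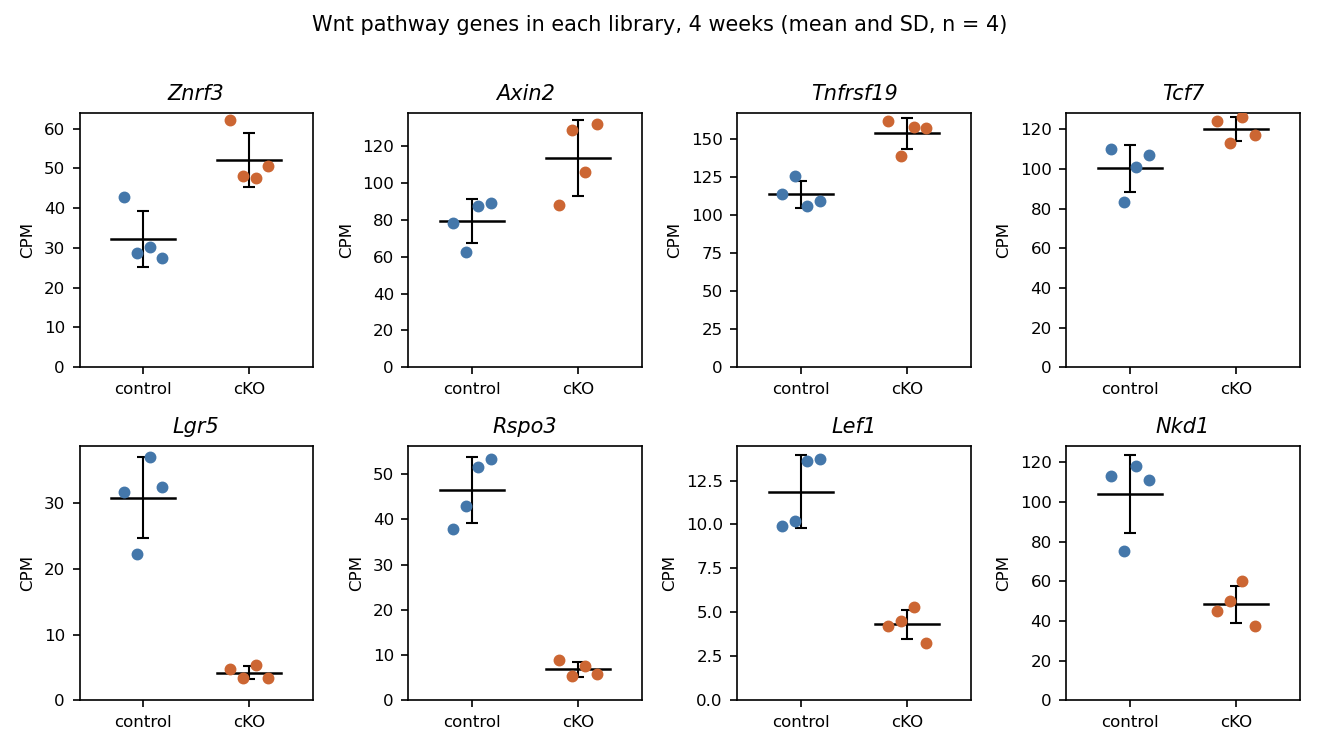
Level of 8 Wnt pathway genes in each of the 8 libraries at 4 weeks (vertical axis, CPM from 0; points, single libraries; bars, mean and SD of 4). Znrf3, Axin2, Tnfrsf19 and Tcf7 lay higher in the cKO libraries, with 1 cKO library of Axin2 among the controls, and Lgr5, Rspo3, Lef1 and Nkd1 lay lower with no overlap.

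The lowest list medians were those of the medulla, cells in which the SF1-driven Cre is not expected to act. A total of 8 of the 11 genes of catecholamine synthesis and transport, 13 of 16 tested granin and peptide genes, 9 of 12 chromaffin transcription factors and 17 of 22 genes of exocytosis and excitability were lower, with medians of -2.07, -2.45, -2.45 and -2.09. The share over all genes was 12.9%. CPM is a share of each library, so more RNA from other cells of the gland would also lower these values. In whole glands, that case, fewer cells of a type and less RNA of that type per cell cannot be told apart. The same limit holds for all the other lists, among them the Wnt lists above and the zona glomerulosa, glia, capsule and fibroblast lists below. None of these cases was tested. The 4 counts of lower genes stayed within 1.5 times of these values when any one library was left out.

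Th, the rate-limiting enzyme of catecholamine synthesis, was at 296, 316, 357 and 306 CPM in the controls and at 78.5, 40.4, 72.8 and 40.9 CPM in the cKO libraries (-2.45 ± 0.40, edgeR adjusted p = 8.05e-05). Dbh, which makes noradrenaline, was at 391, 343, 409 and 408 CPM against 114, 62.5, 96.1 and 59 CPM (-2.22 ± 0.27, edgeR adjusted p = 1.53e-06). In both genes cKO replicates 1 and 3 were the higher 2 of the 4 cKO libraries. Pnmt, which turns noradrenaline into adrenaline and depends on glucocorticoid, was at 167, 259, 167 and 94.1 CPM against 45.2, 8.37, 25.1 and 6.06 CPM (-2.98 ± 0.56, edgeR adjusted p = 3.71e-04), and the same pair was highest. The vesicle transporters Slc18a1 (-2.56) and Slc18a2 (-2.24) and the decarboxylase Ddc (-2.07) fell, and the vesicle cytochrome Cyb561 did so by a smaller value (-0.79). Slc6a2, the noradrenaline transporter, was lower as well, at 22.6 to 36.8 CPM in the controls and 5.17 to 8.33 CPM in the cKO libraries. Gch1, which makes the cofactor of Th, did not pass the threshold (-0.36, edgeR adjusted p = 0.212). Maoa, the mitochondrial enzyme that breaks catecholamines down, was the exception on the list: it was at 112, 66.6, 85.4 and 94.9 CPM in the controls and at 172, 223, 151 and 243 CPM in the cKO libraries, all above the controls (1.13 ± 0.18, edgeR adjusted p = 7.38e-05).

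Chga, the main protein of the secretory granules (GRCm38 chr12:102554969-102565028, plus strand), was at 2370, 2480, 2610 and 2520 CPM in the controls and at 478, 261, 376 and 231 CPM in the cKO libraries (-2.89 ± 0.24, edgeR adjusted p = 1.63e-08). Its relatives Chgb (-2.75) and Scg2 (-2.43) fell with it, as did the peptide genes Npy (-2.59), Penk (-2.70) and Gal (-2.41) and the processing enzyme Pcsk1 (-2.76). Among other processing enzymes, Pam fell from 306 to 350 CPM in the controls to 216 to 277 CPM in the cKO libraries. Cpe did not pass, at 1160 to 1370 and 1170 to 1330 CPM (-0.04, edgeR adjusted p = 0.82). Pcsk2 (-0.81) lost its call without any one library other than control replicate 2.

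Several of these genes carry a cAMP response element, the 8 bases TGACGTCA, close to their start. Stretches of the promoters are shown because the members fell together; the capitals mark the element, which reads the same on both strands. The sequences are from RefSeq (GRCm38.p6), 5′ to 3′ on the strand of the gene.
Th: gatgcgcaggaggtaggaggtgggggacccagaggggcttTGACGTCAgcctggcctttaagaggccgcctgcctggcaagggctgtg
Slc18a2: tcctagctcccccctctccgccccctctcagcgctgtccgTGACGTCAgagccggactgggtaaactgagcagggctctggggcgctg
Chgb: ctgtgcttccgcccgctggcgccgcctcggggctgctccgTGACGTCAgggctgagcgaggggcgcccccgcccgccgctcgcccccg
Scg2: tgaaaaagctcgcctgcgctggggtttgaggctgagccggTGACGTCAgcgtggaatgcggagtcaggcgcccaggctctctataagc
Pcsk1: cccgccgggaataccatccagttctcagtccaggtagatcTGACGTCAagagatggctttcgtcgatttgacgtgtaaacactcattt

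The stretches lie at chr7:142899993-142900080 (minus strand) for Th, chr19:59260834-59260921 (plus strand) for Slc18a2, chr2:132781530-132781617 (plus strand) for Chgb, chr1:79440047-79440134 (minus strand) for Scg2 and chr13:75089739-75089826 (plus strand) for Pcsk1. Among all 32851 promoters of the same 300 bases (250 before to 50 after the start), 1.79% hold the element. Of the 6 tested catecholamine genes with an entry 2 held it, and of 13 granin and peptide genes 4 did, the fourth being Cartpt, which did not pass the test (-1.19, edgeR adjusted p = 0.0718) except with DESeq2, in the fit of the 8 samples alone and without cKO replicate 1. None of 7 chromaffin transcription factors or 14 exocytosis genes with an entry held it. Foxd3 among 6 Schwann genes and Hhip among 12 hedgehog and capsule genes did. The element was in none of 11 Wnt target, 10 receptor control or 8 zona glomerulosa genes. A listed gene counted if any of its promoters held the element, while the share of 1.79% is per promoter. The beta-catenin partner motif AGATCAAAG was in 0.344% of all promoters and in none of the 11 Wnt target genes with an entry. A match in these letters is a description, and its absence says nothing of the factor.

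Transcription factors that specify chromaffin cells were lower in 9 of 12 cases. Gata3 was at 21, 14.8, 21.3 and 25.2 CPM in the controls and at 2.76, 2.04, 3.81 and 2.04 CPM in the cKO libraries (-2.94 ± 0.25, edgeR adjusted p = 2.46e-08). Isl1 (-2.90), Insm1 (-2.87), Hand2 (-2.52), Phox2a (-2.46), Hand1 (-2.45) and Gata2 (-1.76) had no overlap either. Epas1 was among the 3 factors that did not pass the threshold (-0.10, edgeR adjusted p = 0.566). Among exocytosis genes the synaptic vesicle protein Syp was at 52.8, 50.8, 60.9 and 52 CPM against 14, 10.9, 12 and 7.01 CPM (-2.29 ± 0.18, edgeR adjusted p = 1.63e-08), and the subunits of the nicotinic receptor through which nerves drive secretion, Chrna3 (-2.53) and Chrnb4 (-2.51), fell with it. Vamp2 and Rab3a were among the 5 exocytosis genes that did not pass the threshold (0.05 and 0.12).

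Genes of Schwann and sustentacular cells, the glia of the medulla and its nerves, were lower in 10 of 12 cases (median -1.60). Sox10, their defining transcription factor, was at 4.82, 5.42, 5.15 and 7.73 CPM in the controls and at 1.81, 1.63, 1.76 and 0.657 CPM in the cKO libraries (-1.94 ± 0.36, edgeR adjusted p = 3.34e-04), and the sustentacular marker S100b fell by 2.97 on the log2 scale. Pmp22 was called higher (0.24) and lost that call in the fit of the 8 samples alone and with the number covariate. The call also ended without control replicate 2 and cKO replicates 1 and 3 together. The plot of medulla genes by library shows these levels.

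**Figure D2:**
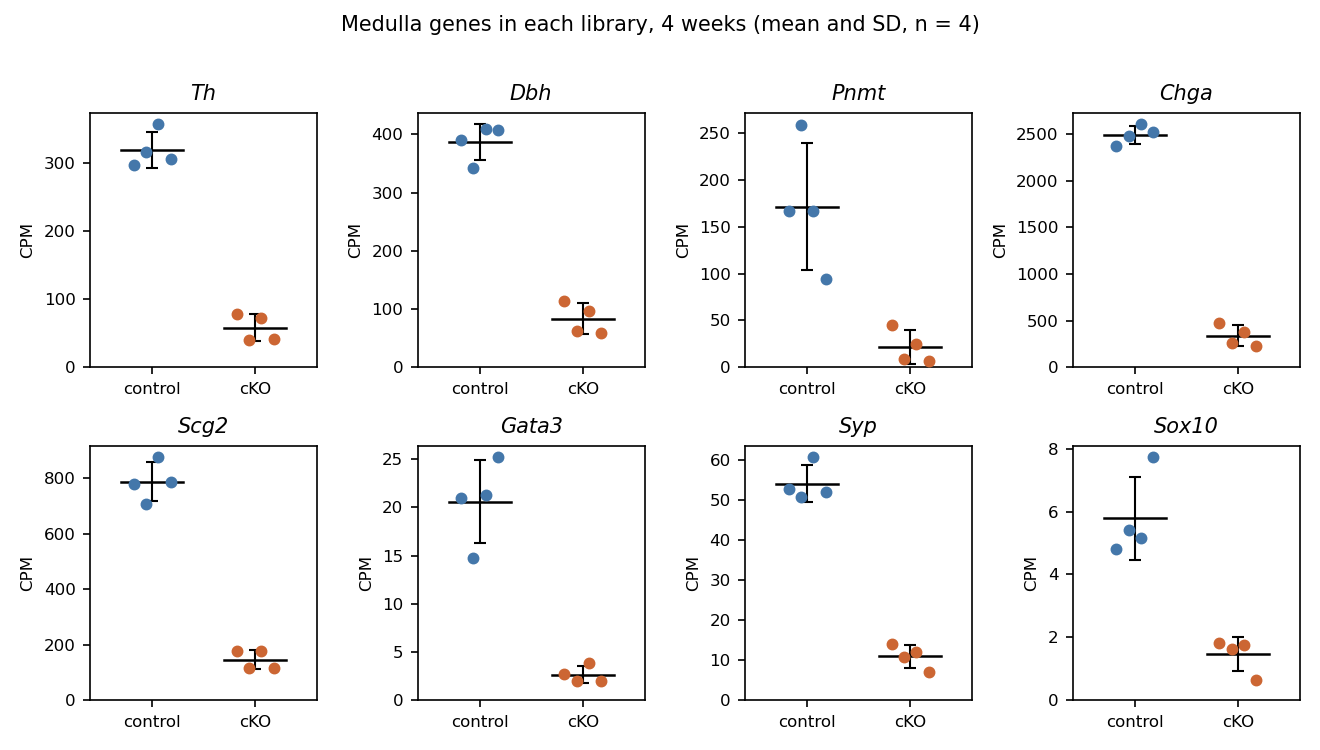
Level of 8 medulla genes in each library at 4 weeks (vertical axis, CPM from 0; points, single libraries; bars, mean and SD of 4). In all 8 panels the 4 cKO libraries lay below the 4 controls, Chga at 231 to 478 against 2370 to 2610 CPM.

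Of 16 tested zona glomerulosa genes, 8 were lower and none passed in the other direction (median -0.77, with 2 of 18 below the filter). With DESeq2, without cKO replicate 1 or without cKO replicate 4, 1 gene of the list was called higher. Cyp11b2, aldosterone synthase, was at 132, 623, 271 and 238 CPM in the controls and at 120, 43.4, 27.5 and 37.9 CPM in the cKO libraries (-2.45 ± 0.49, edgeR adjusted p = 8.06e-04). The lowest control and cKO replicate 1 were close, and no library crossed. The angiotensin receptor Agtr1b was at 14.3, 23.2, 17.4 and 25.8 CPM against 3.88, 3.52, 3.7 and 1.75 CPM (-2.62 ± 0.25), and the potassium channel Kcnk9, which sets the membrane potential of these cells, at 241, 336, 378 and 337 CPM against 101, 63.9, 47.4 and 63.7 CPM (-2.22 ± 0.22). The calcium channel Cacna1d (-2.20) and the calcium sensor Vsnl1 (-1.89) fell too, and the adaptor gene Dab2 fell from 484 to 776 CPM to 204 to 429 CPM. Their relatives were Agtr1a, with a log2 fold change of -0.57, and Kcnk3, which was at 2150 to 2550 CPM in the controls and 1530 to 3070 CPM in the cKO libraries (-0.06, edgeR adjusted p = 0.894). The call for Agtr1a ended without control replicate 2 and cKO replicate 2 together (-0.40, edgeR adjusted p = 0.0686).

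Hedgehog signalling links the zona glomerulosa to the capsule: cortical cells secrete Shh and capsule cells answer with Gli1. Shh was at 107, 47, 112 and 110 CPM in the controls and at 45.1, 53.2, 38.4 and 56 CPM in the cKO libraries, with control replicate 2 in the range of the cKO (-0.96 ± 0.25, edgeR adjusted p = 0.00747); the call ended with the number covariate. Gli1 was at 14.4, 15.3, 23.9 and 22.6 CPM against 7.52, 5.87, 7.1 and 5.55 CPM (-1.54 ± 0.26, edgeR adjusted p = 1.06e-04). The feedback gene Hhip (-1.46) and the capsule transcription factors Nr2f2 (-1.05) and Wt1 (-2.71, from at most 1.75 CPM) fell. Ptch1, the main receptor, fell from 75.1 to 108 CPM to 53.9 to 64.1 CPM, and Tcf21, a factor of capsule cells, from 13.4 to 21.7 CPM to 6.42 to 11.4 CPM. Scube3, which helps release hedgehog ligands, rose from 86.3 to 102 CPM in the controls to 128 to 162 CPM in the cKO libraries (0.58 ± 0.11, edgeR adjusted p = 2.78e-04). In all, 9 of 17 genes were lower and 2 higher, with a median of -0.78. The other higher one, Smo (0.27), passed by a small margin (edgeR adjusted p = 0.0474) and lost its call under upper quartile scaling, in the fit of the 8 samples alone, with the number covariate, and without control replicate 2, cKO replicate 3 or cKO replicate 4.

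Of 25 fibroblast and matrix genes, 10 were lower and 2 higher (median -0.66), beside 12.9% and 6.29% of all genes. Lum, a small proteoglycan of collagen fibrils, was at 33.4, 32.8, 36.8 and 37.8 CPM in the controls and at 7.7, 8.07, 9.1 and 12 CPM in the cKO libraries (-1.94 ± 0.20, edgeR adjusted p = 2.03e-07). Postn (-1.66), Ogn (-1.62), Dcn (-1.55), Loxl1 (-1.16) and the fibroblast receptor Pdgfra (-1.15) fell without overlap. The fibrillar collagen gene Col5a1 went the other way, at 204, 242, 313 and 224 CPM against 348, 487, 459 and 560 CPM (0.91 ± 0.14, edgeR adjusted p = 4.67e-05). The other higher gene, Col6a1 (0.42), lost its call without cKO replicate 4, in the fit of the 8 samples alone and with the number covariate.

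Basement membrane genes split in both directions, with 2 of 18 higher, 6 lower and a median of -0.21. Col4a6, a collagen IV chain encoded on the X chromosome beside Col4a5, was at 6.46, 12.4, 7.05 and 4.55 CPM in the controls and at 38.3, 47.5, 33 and 39.9 CPM in the cKO libraries, with no overlap (2.39 ± 0.36, edgeR adjusted p = 2.91e-05). Col4a5, with which it assembles, rose by less (0.70 ± 0.20, edgeR adjusted p = 0.0167). Col4a4 (-1.05) and the laminin chains Lama3 (-1.10), Lama5 (-1.02) and Lama2 (-0.76) fell.

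Most steroid enzyme genes, measured in whole glands and not by zone, did not pass the threshold, and the list median was 0.01. Of 16 genes 2 were higher and 1 lower. Hsd3b1 was at 12600, 13900, 10700 and 11100 CPM in the controls and at 15400, 14800, 16400 and 15800 CPM in the cKO libraries (0.37 ± 0.11, edgeR adjusted p = 0.0242), and the electron donor Fdxr rose similarly (0.33, edgeR adjusted p = 0.0323). Both calls ended in the fit of the 8 samples alone and with the number covariate, and that of Fdxr also under both combined omissions (control replicate 2 with cKO replicate 2, or with cKO replicates 1 and 3). Without control replicate 1, 4 of the 16 were higher. Star, which brings cholesterol into mitochondria, was at 11400, 10200, 10900 and 10700 CPM against 9250, 6670, 9220 and 5910 CPM. The groups did not overlap, but the difference missed the threshold (-0.48 ± 0.26, edgeR adjusted p = 0.216). Cyp11a1 (0.37, edgeR adjusted p = 0.151), Cyp21a1 (-0.49, edgeR adjusted p = 0.0539) and Cyp11b1 (0.22, edgeR adjusted p = 0.533) overlapped. Cyp21a1 passed with DESeq2, under upper quartile scaling and without cKO replicate 1, and Cyp11a1 without control replicate 1. Cyb5a, a cytochrome that modulates steroid lyase activity, was the lower one, at 61.5 to 71.2 CPM in the controls and 30.5 to 40.9 CPM in the cKO libraries (-0.87 ± 0.14, edgeR adjusted p = 7.06e-05).

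The ACTH receptor Mc2r overlapped between the groups (-0.14, edgeR adjusted p = 0.587). Of 21 tested genes of ACTH and cAMP signalling 5 were lower and 1 higher, beside 12.9% and 6.29% of all genes, with a median of -0.14. The lower ones included the adenylyl cyclases Adcy1 (-2.29), Adcy5 (-1.11) and Adcy6 (-0.40) and the phosphodiesterase Pde2a (-1.54). The fifth, Gnas (-0.31), lost its call without cKO replicate 2 or 4, and the higher one, Prkaca (0.33), without cKO replicate 4. Both calls also ended in the fit of the 8 samples alone, with the number covariate and without control replicate 2 and cKO replicate 2 together. Of 24 cholesterol genes 1 passed. Among 16 cortical transcription factors 3 were higher (Gata6 and Cited2 among them) and 2 lower (Wt1, described above, and Nr3c1, the glucocorticoid receptor gene). Cited2 (0.55) needed control replicates 3 and 4 and cKO replicates 1 and 3 for its call, and Nr3c1 (-0.39) needed every library but control replicate 1 and cKO replicate 4; neither passed with the number covariate or in the fit of the 8 samples alone. Omitting control replicate 1 brought the higher ones to 5, and omitting any of the 4 libraries that Cited2 needed brought them to 2. Gata6, a factor of cortical cells, was at 147, 103, 115 and 128 CPM in the controls and at 175, 195, 186 and 225 CPM in the cKO libraries (0.66 ± 0.12, edgeR adjusted p = 2.6e-04). Nr5a1, the gene of SF1, was at 514 to 1210 CPM in the controls and 739 to 1810 CPM in the cKO libraries (0.57, edgeR adjusted p = 0.169), and it passed without control replicate 1.

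Control replicate 2 differed from the other controls in genes of the innermost cortex. Akr1c18, which degrades progesterone and marks the X-zone, was at 264 CPM in that library, at 1.15, 2.02 and 0.623 CPM in controls 1, 3 and 4, and at 0.073 CPM or less in all cKO libraries. It was called lower (edgeR adjusted p = 5.94e-04), also without control replicate 2, but not with DESeq2 or with the number covariate, and no fold is given because the cKO libraries held 1 read or none. Akr1d1 and Cyp2f2 stood at 180 and 599 CPM in control replicate 2 and at 2.59 CPM or less in every other library. Both were called lower, and neither passed without that library (edgeR adjusted p = 0.88 for Akr1d1 and 0.218 for Cyp2f2). Other genes of the second component were shared with cKO replicates 1 and 3. The Wnt antagonist gene Frzb was at 33.8, 573, 31.8 and 47.2 CPM in the controls and at 161, 43.5, 191 and 39.4 CPM in the cKO libraries, and Cdkn1c, a CDK inhibitor, at 350, 1240, 344 and 401 against 814, 331, 726 and 398 CPM. Srd5a2, which reduces testosterone and progesterone, showed the reverse order, at 1970, 75.9, 2160 and 2280 CPM against 659, 2170, 1490 and 2680 CPM. None of these 3 was called between the genotypes, and their part in the other results was not tested. Prlr, Nr0b1 and Frzb changed direction and became called as higher when control replicate 2 and cKO replicate 2 were left out together (0.65, 1.27 and 1.84). Without control replicate 2 alone the direction had already turned in all 3 genes, to 0.59 for Prlr (edgeR adjusted p = 0.0295), 1.06 for Nr0b1 (edgeR adjusted p = 0.0579) and 1.58 for Frzb (edgeR adjusted p = 0.0672), and of these Prlr passed. These genes were chosen after their values were seen, except Akr1c18, Prlr, Frzb, Cdkn1c and Nr0b1, which are on the lists.

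**Figure D3:**
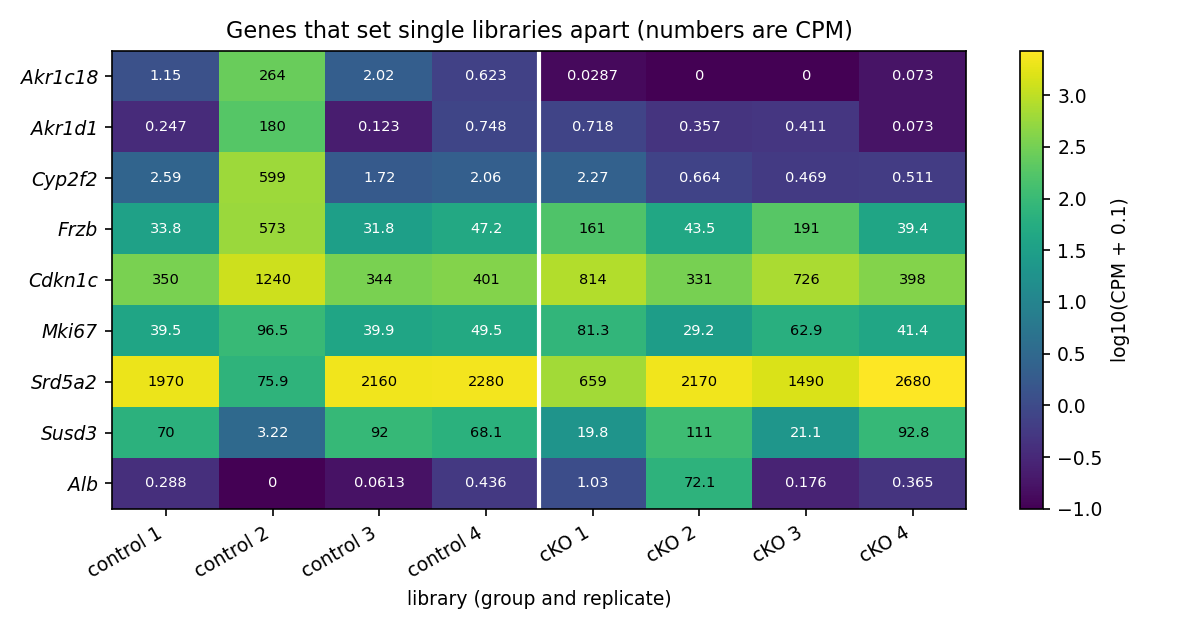
Level of 9 genes that set single libraries apart, with 1 column per library (4 control, then 4 cKO) and 1 row per gene; the numbers are CPM and the colour is log10(CPM + 0.1). Control replicate 2 holds Akr1c18 at 264 CPM and Cyp2f2 at 599 CPM, and cKO replicate 2 holds Alb at 72.1 CPM.

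The genes ranked next were called, protein-coding, without overlap, and at an average log2 CPM of at least 1 over the 24 male libraries. Under these limits the 15 largest falls were Akr1c18, at 264 CPM in control replicate 2 and at 2.02 CPM or less in the other libraries at 4 weeks, Kcnip1 (-4.06), Orm3 (-3.85), B4galnt4 (-3.79), Epha10 (-3.78), Tfap2b (-3.57), Tmem59l (-3.48), Ppp1r17 (-3.47), Srrm3 (-3.47), Phf24 (-3.42), Gpr179 (-3.36), Lhfpl3 (-3.35), Mast1 (-3.33), Vwa5b2 (-3.31) and Elavl3 (-3.30). Tfap2b is a transcription factor of sympathoadrenal cells, at 12.2, 13.1, 20.4 and 22.6 CPM in the controls and at 1.72, 0.97, 1.7 and 1.24 CPM in the cKO libraries. Elavl3 is an RNA-binding protein of neurons and Kcnip1 a regulator of potassium channels.

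Under the same limits, which leave out larger fitted rises such as those of Wnt10b (groups overlap) and Slc4a1 (level too low), the 15 leading rises were Crym and Col4a6 (both 2.39), Stab2 (2.24), Nags (2.13), Slc16a14 (2.12), Tnfsf13b (1.97), Gabrg3 (1.89), Drd4 (1.88), Ggt5 (1.69), Cxcl10 (1.68), Mapk4 (1.56), Apol9b (1.53), Apol9a (1.52), Tmem200c (1.50) and Ildr2 (1.45). Crym, a thyroid hormone-binding protein, was at 34.2, 1.83, 29.7 and 38 CPM in the controls and at 52.9, 169, 101 and 224 CPM in the cKO libraries, so it was lowest in control replicate 2 and high in cKO replicates 2 and 4. In 14 of these 15 genes, all but Stab2, cKO replicates 2 and 4 were both above cKO replicates 1 and 3. Tnfsf13b encodes the B-cell survival factor BAFF and was at 3.95, 4.54, 2.7 and 2.93 CPM against 7.38, 19.8, 9.68 and 19 CPM (adjusted p = 1.77e-05, edgeR). Gabrg3, a GABA receptor subunit, was at 8.52, 9.14, 6.38 and 8.29 CPM against 20.9, 41.7, 26.6 and 31.2 CPM. Apol9a and Apol9b are near-identical copies whose reads could be split by the counting, so their values are uncertain. Slc16a14 lost its call with the number covariate.

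Dnajc15, a co-chaperone of the inner mitochondrial membrane, was chosen after its value was seen. It was at 126, 137, 114 and 106 CPM in the controls and at 264, 271, 233 and 243 CPM in the cKO libraries (1.06 ± 0.09, edgeR adjusted p = 1.63e-08). Smad6, an inhibitor made in response to BMP signals, was at 19.5, 20.7, 16.2 and 17 CPM against 44.4, 48.6, 45.9 and 51 CPM (1.37 ± 0.19, edgeR adjusted p = 8.45e-06). Both sets were tight and apart. In the BMP, activin and TGF-beta list 3 of 24 tested genes were higher and 5 lower (median -0.30), beside 6.29% and 12.9% of all genes. Id1, a target of BMP signals, was among the higher ones (0.86), with a call that ended with the number covariate and without control replicate 2 and cKO replicates 1 and 3 together. Bmp2 (0.54) lost its call without control replicate 3, in the fit of the 8 samples alone and with the number covariate. The lower ones included the activin subunit gene Inhba (-2.11), Tgfb3 (-1.09), Bmp6 (-0.63) and the antagonist Fst (-1.70, from at most 2.7 CPM). Bmp6 lost its call without cKO replicate 1 or 4 and in the fit of the 8 samples alone, and Fst needed control replicate 3 and cKO replicates 1 and 2, and also fell below the threshold with the number covariate. Fosl2, an AP-1 factor, was at 374 to 384 CPM in the controls and 619 to 821 CPM in the cKO libraries (0.94 ± 0.15, edgeR adjusted p = 4.87e-05); of the 18 immediate early genes it alone was higher, and Klf4 (-0.78) and Egr3 (-1.90) were lower. Without cKO replicate 2, or with the number covariate, neither of the lower ones passed; Egr3 also needed control replicates 3 and 4 and cKO replicates 3 and 4, and without cKO replicate 1 the list had 4 lower. The glutathione transferase gene Gstm1 rose from 280 to 507 CPM to 572 to 818 CPM (0.83 ± 0.18, edgeR adjusted p = 0.00201). Gstm2 (0.66), Gstm3 (1.31) and Gpx1 (0.43) were also higher among 21 tested redox genes, and Gsta3 (-1.93) and Gpx3 (-0.79) lower; Gpx1 and Gstm2 lost their calls with the number covariate, Gstm2 also without control replicate 2, and without control replicate 1 the list had 7 higher.

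Of 21 tested growth factor genes 8 fell and 1, Pdgfb (0.43), rose, with a median of -0.43; Pdgfb lost its call with the number covariate and under both combined omissions. Dlk1, a membrane protein made by chromaffin cells and by the capsule side of the rodent gland, was at 473, 470, 521 and 509 CPM in the controls and at 112, 55.8, 102 and 55.9 CPM in the cKO libraries (-2.59 ± 0.25, edgeR adjusted p = 6.95e-08). The heparin-binding factors Mdk (-1.75) and Ptn (-1.73), the receptor gene Egfr (-1.38) and Fgf1 (-0.99) fell as well. Beside 12.9% of all genes, 5 of 14 tested retinoid genes were lower. They included Aldh1a3 (-1.40) and Aldh1a2 (-0.89), which make retinoic acid, the binding protein gene Crabp1 (-1.40) and the retinol receptor gene Stra6 (-1.30). Crabp1 lost its call without control replicate 3 and with the number covariate. The list plot sets these groups beside the others.

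**Figure D4:**
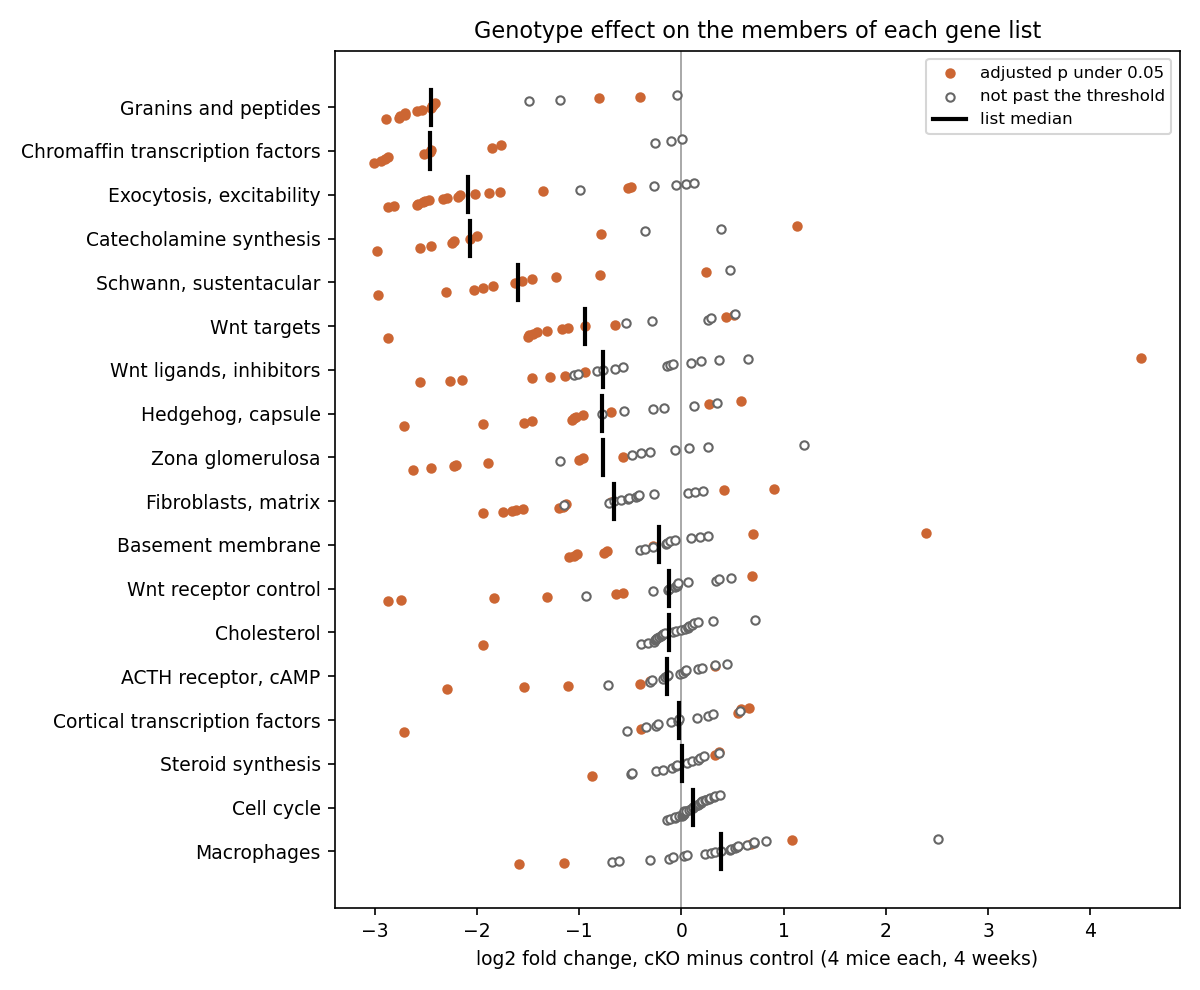
Log2 fold change (cKO minus control, horizontal axis) of each tested member of 18 gene lists at 4 weeks; filled points passed edgeR's test, open points did not, and the black bar is the list median. The 4 medulla lists have medians of -2.45 to -2.07, while steroid synthesis lies at 0.01 and cell cycle at 0.11.

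No gene of the cell cycle list was called by edgeR (0 of 30, 1 of them under an unadjusted p of 0.05; 0 with DESeq2), with a median of 0.11. Mki67, a marker of dividing cells, was at 39.5, 96.5, 39.9 and 49.5 CPM in the controls and at 81.3, 29.2, 62.9 and 41.4 CPM in the cKO libraries, and Top2a was at 41.2, 78.2, 31.4 and 39 CPM against 68.4, 25.7, 60.5 and 38.5 CPM. The highest library of each was control replicate 2, with cKO replicates 1 and 3 next. Without control replicate 2, 6 genes of the list were called higher, and 7 when cKO replicate 2 was left out with it. Among 21 CDK inhibitor and p53 genes 1 was higher, Cdkn2c (0.25), and Cdkn1b (-0.30) and Phlda3 (-0.38) were lower, and none of the 3 calls held without control replicate 3, without cKO replicate 1 or with the number covariate. Cdkn1a, the p21 gene, was at 15.6 to 30 CPM in the controls and 19.4 to 37.7 CPM in the cKO libraries (0.26, edgeR adjusted p = 0.476). Cdkn2a was at 3.43 to 4.6 and 2.92 to 6.54 CPM (0.24, edgeR adjusted p = 0.635). Of 25 tested secreted factors often counted with senescence, 2 were higher (Cxcl10 and Csf1) and 3 lower (Igfbp6, Igfbp5 and Cxcl12), with a median of 0.03. These counts were near the shares over all genes, 6.29% higher and 12.9% lower. Csf1 (0.34) lost its call without cKO replicate 4, in the fit of the 8 samples alone and with the number covariate. Igfbp5, a binding protein of insulin-like growth factors, was at 175, 183, 273 and 252 CPM against 79.5, 97.2, 58.3 and 110 CPM (-1.36 ± 0.19, edgeR adjusted p = 1.28e-05).

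Of 25 tested macrophage genes 2 were higher (Aif1 and C1qb) and 2 lower (Lyve1 and Cd163), with a median of 0.39; over all genes 6.29% were higher and 12.9% lower. The list of T and NK cells had 1 higher gene of 15 tested, and that of neutrophils and mast cells 1 higher and 1 lower of 7. Omitting cKO replicate 1 brought the higher macrophage genes to 9, omitting control replicate 1 to 5 and omitting cKO replicate 3 to 4. Omitting any other single library left 1 higher macrophage gene. With control replicate 2 and cKO replicates 1 and 3 left out together the higher macrophage genes numbered 7. C1qb needed control replicates 2, 3 and 4 and cKO replicates 2 and 4 for its call. Cd163 needed control replicates 3 and 4 and cKO replicate 1. With the number covariate no gene of the macrophage list passed. Aif1, a gene of macrophages, was at 4.65, 1.58, 4.41 and 5.11 CPM in the controls and at 4.74, 9.6, 6.81 and 12.8 CPM in the cKO libraries (1.08 ± 0.28, edgeR adjusted p = 0.00845), and its call ended with the number covariate and in the fit of the 8 samples alone. Adgre1, which encodes F4/80, was at 11.4, 6.68, 12.8 and 12.2 CPM against 7.58, 26.3, 13.5 and 23.5 CPM (0.71, edgeR adjusted p = 0.145), and it passed without cKO replicate 1. In both, cKO replicates 2 and 4 were the highest of the 8 libraries. Lyve1, a marker of resident macrophages and of lymphatic vessels, was at 3.46 to 5.73 CPM in the controls and 0.766 to 1.97 CPM in the cKO libraries (-1.59 ± 0.42, edgeR adjusted p = 0.00839), with a call that ended with the number covariate and under both combined omissions. Ighm, the IgM heavy chain, was at 184, 63.6, 132 and 106 CPM against 241, 329, 237 and 286 CPM, with no overlap (1.17 ± 0.20, edgeR adjusted p = 1.46e-04), and it was the 1 called gene of 10 in the B-cell list. Of the 17 interferon-stimulated genes none was called by edgeR (3 at an unadjusted p under 0.05, 1 with DESeq2), while omitting cKO replicate 1 gave 5 higher calls, omitting cKO replicate 3 gave 2 and omitting control replicate 2 gave 1. Leaving out control replicate 2 and cKO replicates 1 and 3 together gave 10 higher calls. Ifit1 and Isg15 were at 37.8 and 31.4 CPM in cKO replicate 2 and at 56.6 and 42 CPM in cKO replicate 4, against 20 CPM or less in the other 6 libraries.

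The erythrocyte gene Slc4a1 was at 0.499 CPM or less in the controls and at 14.7, 0.97, 3.64 and 13.3 CPM in the cKO libraries (5.14 ± 0.74, edgeR adjusted p = 1.85e-05); the other 5 tested erythrocyte genes were not called, and the list summed to 310 to 488 CPM in the controls and 457 to 702 CPM in the cKO libraries. Of 21 endothelial and vessel genes 5 were lower (Tagln, Flt1, Emcn, Tek and Rgs5), beside 12.9% of all genes, and none was higher by edgeR, with a median of -0.15. That count fell to 3 without cKO replicate 2, to 2 without control replicate 3, cKO replicate 1 or cKO replicate 3 and to 1 without control replicate 4. The smooth muscle gene Tagln (-0.69) kept its call in each of these.

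The glands at 6 and 9 weeks, from other mice, place these values in time. At 6 weeks 1399 genes (8.19%) were higher and 2036 (11.9%) lower in the cKO, and at 9 weeks 1779 (10.4%) and 2331 (13.6%). Of the 2200 genes lower at 4 weeks, 1489 were also lower at 6 weeks and 1254 at 9 weeks. Of the 1075 higher ones, 484 were also higher at 6 weeks and 294 at 9 weeks. At neither later age were 571 of the lower and 479 of the higher ones called. The opposite direction was called at 9 weeks for 29 of the lower and 26 of the higher ones, and at 6 weeks for 4 and 0. The shared lower genes are 67.7% of those at 4 weeks and 73.1% of those at 6 weeks, and 57% and 53.8% for 9 weeks. The shared higher genes are 45% and 34.6% for 6 weeks, and 27.3% and 16.5% for 9 weeks. The log2 fold change of Chga was -3.56 at 6 weeks and -2.54 at 9 weeks, and that of Lgr5 -2.78 and -2.67; the change from 4 to 9 weeks was 0.35 for Chga and 0.19 for Lgr5 (edgeR adjusted p = 0.52 and 0.788).

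A test of the change itself called 1 gene between 4 and 6 weeks (0.00585% of those tested, with 1505 genes under an unadjusted p of 0.05 and 97 called by DESeq2). It was Mmp12, a macrophage metalloproteinase, whose log2 fold change was 0.41 at 4 weeks, 5.01 at 6 weeks and 5.13 at 9 weeks (change of 4.60, edgeR adjusted p = 0.0361). Mmp12 lost this call without control replicate 1, 3 or 4, without cKO replicate 1, 3 or 4 and with a term for replicate number. The call also ended without control replicate 2 and cKO replicates 1 and 3 together. Between 4 and 9 weeks 840 genes (4.92%) changed their effect, 503 upward and 337 downward, and 13 did with the number covariate. Macrophage genes were among those that moved up: Cd68 stood at 0.55 at 4 weeks and 3.15 at 9 weeks (edgeR adjusted p = 0.0141 for the change), and Trem2 at -0.08 and 3.17 (edgeR adjusted p = 0.0141). Among called genes within the limits on biotype and level given above, Il7r, Stac2, Slc7a11, Cd300lb and Fabp5 had the largest upward changes after Mmp12, of 4.23 to 4.71. Under the same limits the 6 largest downward changes were those of Slc16a14 (-3.03), Asphd2 (-2.80), Map3k9 (-1.67), Pcdhga10 (-1.51), Srl (-1.46) and Chtf8 (-1.34).

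Genes that fell at 4 weeks differed in what came later. The changes to 9 weeks given here are from the fit with 840 such calls, against 13 with the number covariate. Of the capsule and matrix genes, Dcn stood at -1.55 at 4 weeks and -0.44 at 9 weeks (edgeR adjusted p = 0.0227 for the change), Ogn at -1.62 and -0.58 (edgeR adjusted p = 0.00731), and Lama5 at -1.02 and 0.01 (edgeR adjusted p = 0.0127). Rspo3 moved from -2.74 to -1.35 (edgeR adjusted p = 0.00827). Smad6, higher at 4 weeks by 1.37, stood at 0.41 at 9 weeks (edgeR adjusted p = 0.0381). For Axin2 the change was not past the threshold (-0.27, edgeR adjusted p = 0.503). The plot by age shows these paths.

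**Figure D5:**
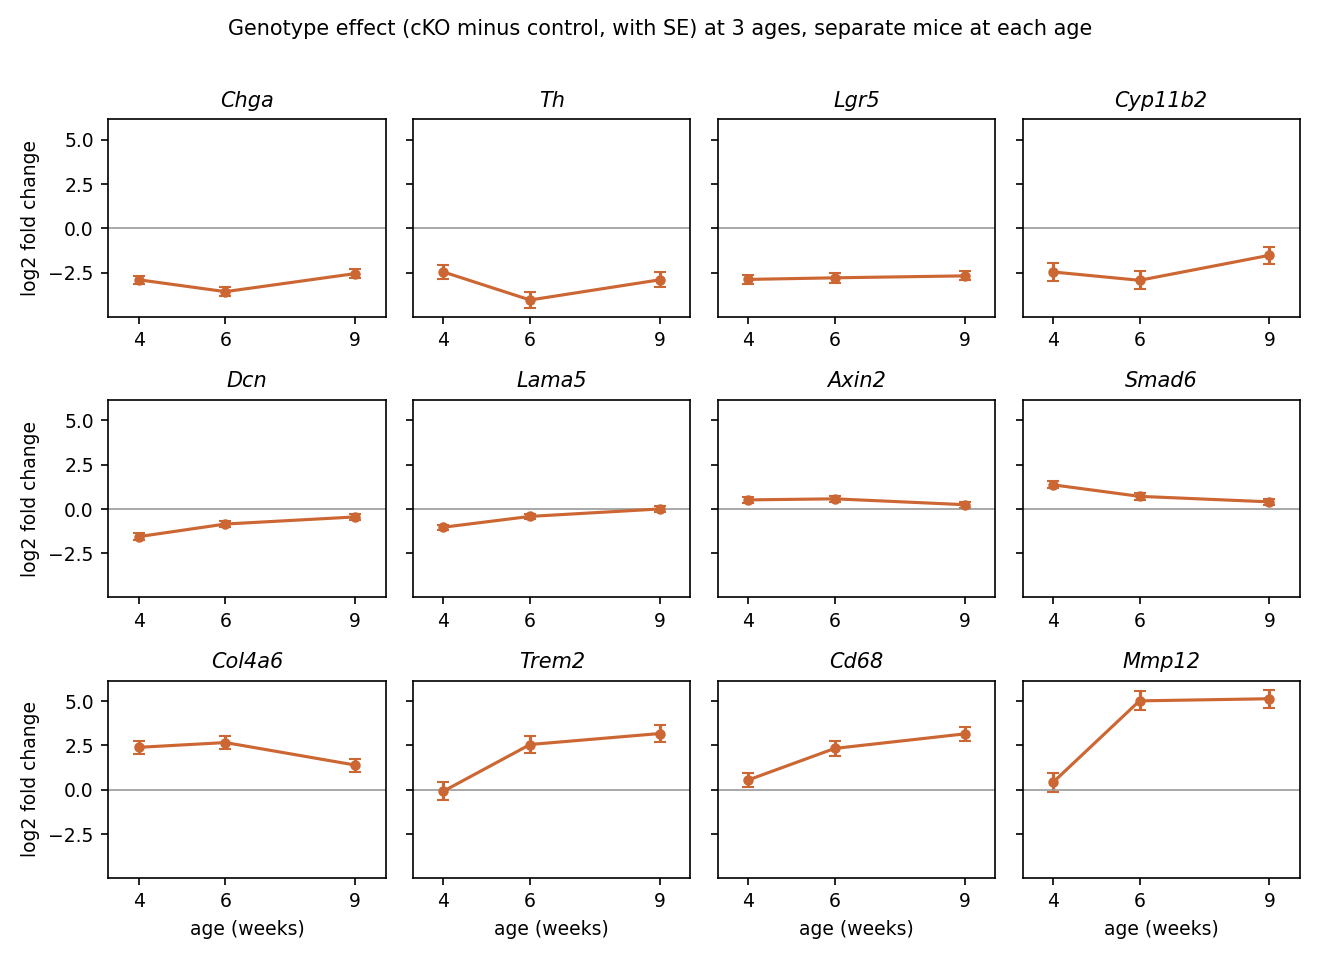
Log2 fold change of cKO minus control (vertical axis, with SE) for 12 genes at 4, 6 and 9 weeks (horizontal axis), from separate mice with 4 per group at each age. Chga and Lgr5 stay below -2.5 at 4, 6 and 9 weeks, Dcn and Lama5 approach 0, and Trem2, Cd68 and Mmp12 rise from -0.08, 0.55 and 0.41 at 4 weeks.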

How the data were processed

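Poly(A)-selected, directional libraries were made from whole adrenal glands cleaned of fat, 1 per mouse, per the labels' protocols. The deposited values were raw counts per gene; STAR 2.7.6a, cutadapt 1.16, RSEM 1.6.3, featureCounts, DESeq2 1.30.1 and build GRCm38 are named without role or order, per the submitters' processing notes. Which tool counted, its strand setting and its annotation are not given in the sources used here, so reads of overlapping antisense genes cannot be assigned. Symbols and coordinates were taken from GENCODE M21 for 99.38% of the 55487 identifiers.

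Counts of the 24 male libraries were fitted together with edgeR 4.0.16 (limma 3.58.1, R 4.3.3), 1 term per age and genotype, TMM scaling and filterByExpr with a minimum count of 10, leaving 17086 genes. The quasi-likelihood test compared cKO with control at 4 weeks, with Benjamini-Hochberg adjustment over all genes and a threshold of 0.05. The test was also run on counts simulated from the control means at 4 weeks, with a common spread and 200 changed genes. Those counts lack the differences between libraries described above, so that run cannot vouch for the calls in these data. Named were Znrf3, the 15 largest protein-coding changes each way without overlap at an average log2 CPM of at least 1, members of 39 lists (at most 8 called ones per list with a fold change), 6 changes with age each way, and up to 6 of the 12 highest genes. Some list members, though counted, are not reported here by name. The members and lists were chosen with earlier results of these data known. Alternatives covered DESeq2 1.42.0, scaling, filters (none, or a CPM of 5 in 4 libraries), the 8 samples alone, a replicate block, library number and single libraries; 2 combined omissions and all alternatives at 6 and 9 weeks were added after the data were seen. Promoters are 300 bases from RefSeq GRCm38.p6. Precision is limited by 4 mice per group.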

Additional observations from a re-analysis of the deposited data

Results flagged for a closer look

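In 506 groups of 4 libraries checked, for the genes named and the summed lists, 38 (7.51%) held a library whose gap to the nearest other exceeded Dixon's 95% critical value. Chance flags about 1 in 20 groups that were not selected. Some of these genes were named after their values were seen, and the summed lists repeat named members. The share of 7.51% can therefore not be compared with that rate. Values are CPM. In the cKO group, replicate 1 was the highest for Cyp2f2 at 2.27 (others 0.469 to 0.664), Gal at 6.66 (others 4.38 to 4.52), Mast1 at 0.976 (others 0.511 to 0.562), Ppp1r17 at 1.12 (others 0.408 to 0.528) and Vsnl1 at 26.3 (others 10.5 to 13). In the cKO group, replicate 2 was the highest for Alb at 72.1 (others 0.176 to 1.03) and the summed liver markers at 132 (others 2.48 to 7.81). In the cKO group, replicate 3 was the highest for Flt1 at 108 (others 91.9 to 94.5), Gch1 at 68.4 (others 52.2 to 54.9) and the summed Wnt targets at 918 (others 767 to 773). In the cKO group, replicate 4 was the lowest for Agtr1b at 1.75 (others 3.52 to 3.88) and Sox10 at 0.657 (others 1.63 to 1.81). Among controls, replicate 1 was the highest for Phlda3 at 24.3 (others 20.6 to 20.9), Pmp22 at 158 (others 134 to 136), Rab3a at 81 (others 56.4 to 57.6) and the summed redox genes at 3820 (others 3150 to 3220). Among controls, replicate 2 was the highest for Akr1c18 at 264 (others 0.623 to 2.02), Akr1d1 at 180 (others 0.123 to 0.748), Cdkn1c at 1240 (others 344 to 401), Cyp21a1 at 19400 (others 11900 to 13000) and Cyp2f2 at 599 (others 1.72 to 2.59). It was also highest for Frzb at 573 (others 31.8 to 47.2), Gsta3 at 10.8 (others 3.62 to 4.74), Nr0b1 at 52.1 (others 9.29 to 10.2), Prlr at 277 (others 70 to 102) and the summed Wnt ligands and inhibitors at 1160 (others 679 to 689). It was also highest for the summed X-zone markers at 597 (others 98.4 to 130), the summed cell cycle genes at 1470 (others 725 to 830) and the summed CDK inhibitor and p53 genes at 1900 (others 970 to 1010). Among controls, replicate 2 was the lowest for Apol9a at 5.3 (others 10.5 to 11.5), Apol9b at 3.4 (others 10.2 to 11.3), Col6a1 at 678 (others 925 to 952), Gal at 19.2 (others 28.7 to 30.1) and Nkd1 at 75.1 (others 111 to 118). It was also lowest for Shh at 47 (others 107 to 112) and Srd5a2 at 75.9 (others 1970 to 2280). Among controls, replicate 3 was the highest for Slc6a2 at 36.8 (others 22.6 to 23.3). Among controls, replicate 4 was the highest for Slc4a1 at 0.499 (others 0.124 to 0.184).

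The genotype effect differed between 4 weeks and a later age, by edgeR's test of the difference, for these named genes; the values are changes in log2 fold change, later minus 4 weeks, and all adjusted p-values were below 0.05. From 4 to 6 weeks it was Mmp12 (4.60). From 4 to 9 weeks it moved up for Mmp12 (4.72), Il7r (4.71), Stac2 (4.55), Slc7a11 (4.46), Cd300lb (4.45), Fabp5 (4.23), Trem2 (3.25) and Cd68 (2.60). Upward changes followed in Phf24 (2.16), Nkd2 (1.74), Egfr (1.53), B4galnt4 (1.45), Rspo3 (1.39), Mdk (1.38) and Penk (1.36). Upward changes followed in Wnt2b (1.35), Igfbp6 (1.24), Lum (1.15), Dcn (1.11), Wnt6 (1.10), Ogn (1.03) and Tcf21 (1.03). Upward changes followed in Lama5 (1.02), Cacna1d (1.01), Pdgfra (0.97), Igfbp5 (0.95), Col4a4 (0.89), Sfrp1 (0.87) and Lama3 (0.77). Upward changes followed in Tagln (0.71), Loxl1 (0.70), Lama2 (0.61) and Nr2f2 (0.59). It moved down for Dnajc15 (-0.51), Vamp2 (-0.55), Scube3 (-0.60), Fosl2 (-0.73), Tnfrsf19 (-0.77), Smad6 (-0.96), Chtf8 (-1.34) and Srl (-1.46). Downward changes followed in Pcdhga10 (-1.51), Map3k9 (-1.67), Asphd2 (-2.80) and Slc16a14 (-3.03). With the number covariate, 13 of the 840 changes between 4 and 9 weeks over all genes were called.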

How the results depend on the processing

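The count of higher genes at 4 weeks (1075) was 1647 with DESeq2, 560 in the fit of the 8 samples alone, 230 with the library number covariate and 43 with library numbers up to 24 only. It ran from 934 to 2460 as single libraries were left out, and was 654 without control replicate 2 and cKO replicates 1 and 3 together. The count of lower genes (2200) was 1433 with the filter of a CPM of 5 in 4 libraries and 635 with numbers up to 24 only. With that filter 49.6% of the calls were higher. At 6 weeks the higher genes numbered 488 with the number covariate, and the lower ones 1304 with the CPM filter and 1125 with the covariate. The change from 4 to 6 weeks was called for 97 genes with DESeq2, 2 without a filter, 0 with the replicate block, 0 to 3 without single libraries and 10 without control replicate 2 and cKO replicate 2 together. For 4 to 9 weeks, the upward changes were 818 with DESeq2, 179 with the replicate block, 10 with the covariate, 232 to 565 without single libraries and 215 without control replicate 2 and cKO replicates 1 and 3. The downward ones were 827 with DESeq2, 573 with the CPM filter, 75 with the replicate block, 3 with the covariate, 151 to 670 without single libraries, 646 without control replicate 2 and cKO replicate 2, and 72 without control replicate 2 and cKO replicates 1 and 3. The cause of these shifts was not tested.

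Of 215 named genes 174 were called at 4 weeks. Of these, 40 lost the call with the number covariate, 91 with numbers up to 24 only, 21 in the fit of the 8 samples, 4 to 16 without single libraries, and 21 and 28 under the combined omissions. With a call in either fit, direction changed for Frzb (1.84), Nr0b1 (1.27), Prlr (0.65) and Akr1d1 (0.31) without control replicate 2 and cKO replicate 2, and for Akr1d1 (0.73) with numbers up to 24. Without single libraries Prlr ran from -0.22 to 0.59 and Akr1d1 from -7.16 to 0.24, both highest without control replicate 2. In that omission Frzb (1.58) and Nr0b1 (1.06) also turned, with no call.

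Replicate numbers did not pair the samples: same-numbered libraries had correlations of -0.15, -0.25, -0.03 and 0.11, and only number 4 correlated best with itself. With the replicate block 769 genes were higher and 1923 lower at 4 weeks, and 17 of the 174 named calls were lost. The design limits precision by 4 mice per group. At 4 weeks a single control has a low library number, so the number covariate also rests on the glands at 9 weeks and assumes the same shift at every age.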
